A study of Mus musculus with 15 samples.

Results

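Mitochondrial ribosomal proteins are described here across naïve, TCR activated and effector P14 CD8+ T cells. The members were taken by their symbols, as every row named Mrpl or Mrps followed by a digit, and no measured value entered that rule, though the group was picked with earlier results of these data known. Both deposited tables held the same 76 members, of 11262 genes in the table of naïve and activated cells and 11211 genes in the table of effector cytotoxic T cells (CTL). The symbols divide into 47 Mrpl and 29 Mrps genes. By the place of the proteins in the ribosome, 49 belong to the large subunit, 26 to the small subunit and 1, Mrps36, is now known as a component of the α-ketoglutarate dehydrogenase complex. Mrps18a and Mrps30 carry small subunit symbols and sit in the large subunit.

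RNA sequencing was done on CD8+ T cells of P14 mice, which carry a transgenic TCR for the lymphocytic choriomeningitis virus peptide gp33–41, so that nearly all cells of a culture see the same peptide. The first table, from adult female mice, had 3 groups of 3 replicates, and each replicate was a lymph node pool from 3 mice shared out between the groups: naïve cells sorted ex vivo, cells kept for 24 h with the peptide at 100 ng/ml together with IL-12 at 2 ng/ml and IL-2 at 20 ng/ml (TCR), and cells activated in the same way with 10 µM of the p110δ inhibitor IC87114 (PI3Kdi). Activated cells were sorted as live CD8+ cells, and DMSO was the vehicle. The second table had 2 groups of 3 replicates, CTL made by 48 h of activation and later culture in IL-2, which were then kept for 24 h with 20 ng/ml IL-2 or without IL-2. All 5 groups share the transgenic TCR and no group carries a deletion. The questions asked of the members are how their mRNA change when naïve cells are activated, how much of that depends on p110δ, and whether IL-2 sustains them in CTL.

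The mitochondrial ribosome makes the few proteins that mitochondrial DNA encodes, all of them core subunits of the respiratory chain and the ATP synthase. Its RNA come from mitochondrial DNA, but each of its proteins is encoded in the nucleus, translated in the cytosol and imported. The small subunit holds the decoding centre, where messenger and transfer RNA pair, and the large subunit holds the peptidyl transferase centre and the exit tunnel. Some of the proteins have counterparts in bacteria and others were added in the mitochondrial lineage. Naïve T cells are small and quiescent, and activated T cells grow, divide and enlarge their mitochondria. IL-2 is a growth factor of CTL, and p110δ is the catalytic subunit of phosphoinositide 3-kinase that acts in T cells.

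The authors deposited FPKM, read counts normalised by TMM and divided by exon length. Levels can thus be compared between genes as far as the exon lengths used hold. They are shares of a library and not amounts per cell. Each gene was fitted as log2(FPKM + 0.1) with limma, with Benjamini-Hochberg adjustment over the whole table. In what follows, rose and fell are used at an adjusted p under 0.05, and changes over 2-fold are counted besides. The median FPKM of a library lay between 11.2 and 12.28 in the first table and between 11.47 and 11.68 in the second. Estimated from the spacing of low FPKM values, libraries held 9.85 to 14.5 M reads. At that depth the lowest read estimate of a member was about 41 reads, for Mrps28 in a CTL library without IL-2. A library with an estimate under 100 reads was found for 5 members. These were bulk samples, in which fewer cells of a type and less RNA per cell cannot be told apart. The sum of 5 CD8 T cell genes (Cd8a, Cd8b1, Cd3d, Cd3e, Cd3g) was 3344 FPKM in naïve, 664.9 in TCR activated and 883.1 in PI3Kdi cells, and 1015 and 1975 FPKM in CTL with and without IL-2. Of 26 marker genes of other cell types (B, myeloid and dendritic, CD4 T, NK, red blood, stromal and endothelial cells) 9 had a row in the first table, and their sum was 123.46 to 151.54 FPKM in naïve, 45.75 to 63.94 FPKM in TCR activated and 52.24 to 56.38 FPKM in PI3Kdi libraries. Cst3 and Pecam1 made up most of the naïve sum. Pecam1 was at 55.57 to 66 FPKM in naïve and 2.25 to 3.49 FPKM in TCR activated libraries. Cst3 was at 46.51 to 58.09 FPKM in naïve and 37.64 to 55.77 FPKM in TCR activated libraries. On activation 3 of the 9 fell and 0 rose, and with PI3Kdi 3 fell and 1 rose. Their part in the results was not tested.

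Activation raised nearly all of the mitochondrial ribosomal proteins. Of the 76 members, 74 rose, 1 fell and 1 did not pass the test, while 40.9% of all 11262 genes rose and 39.8% fell. A rise over 2-fold was found for 45 members, against 25.0% of all genes, and a fall over 2-fold for 0 members, against 23.7%. The median log2 fold change of the members was 1.20, and that of all genes was 0.01. Summed over the members, the naïve libraries had 2023.26, 2305.3 and 2074.92 FPKM and the TCR activated libraries 4479.41, 4747.87 and 4861.81 FPKM. The means were 2134 ± 150 and 4696 ± 196 (SD, n = 3), a ratio of 2.20. Members took 0.467% ± 0.0126 (SD, n = 3) of all FPKM of a naïve library and 0.98% ± 0.0202 (SD, n = 3) after activation. The groups did not overlap for 70 members that were higher in each TCR activated library than in each naïve one, which 40.7% of all genes were. The reverse held for 1 member and for 40.0% of all genes.

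**Figure D1:**
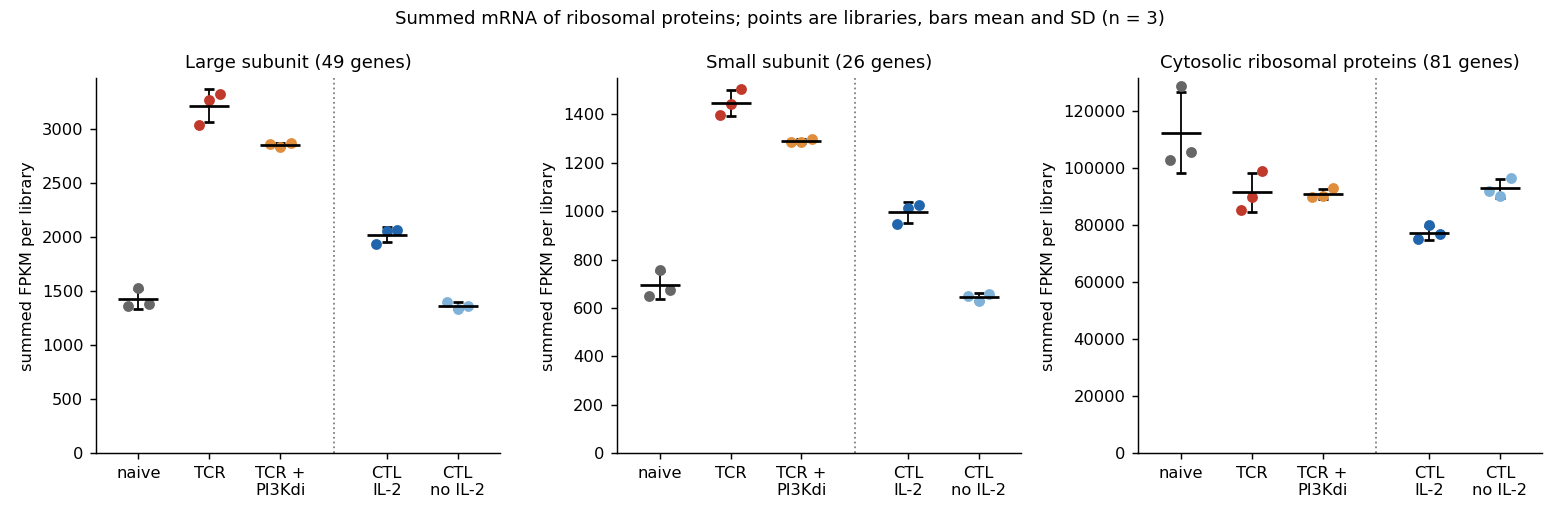
Summed FPKM of the 49 large subunit members, the 26 small subunit members and 81 cytosolic ribosomal protein genes in each of the 15 libraries (points), with the mean and SD of 3 replicates (bars); the dotted line parts the 2 separately normalised tables. Both subunits were lowest in naïve cells and in CTL without IL-2, whereas the cytosolic sum was highest in naïve cells and, among CTL, higher without IL-2.

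Members of both subunits rose. Of the 49 large subunit members 47 rose, with a median log2 fold change of 1.21, and of the 26 small subunit members 26 rose, with a median of 0.97. The summed FPKM of activated cells was 2.26-fold that of naïve cells for the large and 2.09-fold for the small subunit. Among proteins with a bacterial counterpart the median was 1.29 for the 30 in the large and 0.97 for the 16 in the small subunit. Among the mitochondria-specific proteins it was 1.06 for the 19 in the large and 1.21 for the 10 in the small subunit. The differences between these classes were not tested. The sum of 81 genes with symbols of cytosolic ribosomal proteins, which make all other proteins of the cell, was 112200 ± 14200 FPKM in naïve cells and 91340 ± 6940 FPKM after activation (SD, n = 3). Of these 81 genes 12 rose and 35 fell, beside 40.9% and 39.8% of all genes. A rise over 2-fold was found for 5 of them, beside 25.0% of all genes. These 5 include Rps19bp1 and Rpl7l1, whose products are not known as core ribosomal proteins.

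Mrps6 had the highest fold change of all members. It encodes a small subunit protein with a bacterial counterpart. Its FPKM were 12.44, 16.09 and 10.99 in naïve libraries, 64.2, 84.9 and 78.66 in TCR activated libraries and 67.78, 66.37 and 59.69 with PI3Kdi. All activated libraries were well above the naïve ones, and those with and without PI3Kdi overlapped. The log2 fold change of TCR over naïve was 2.53 ± 0.14 (SE, limma adjusted p = 2.01e-08), a 5.76-fold difference. Mrps6 (chromosome 16, 92058336 to 92112227, GRCm38) spans the gene of the inositol transporter Slc5a3, which went from 0.91 ± 0.282 to 1.86 ± 0.11 FPKM on activation (SD, n = 3). The libraries were made with a stranded kit, and whether strand was used in counting is not given in the sources used here.

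Mrps22, a mitochondria-specific protein of the small subunit, was the next. It was at 7.86, 9.4 and 10.61 FPKM in naïve and at 46.26, 52.94 and 53.15 FPKM in TCR activated cells. The groups lay far apart, with a log2 fold change of 2.45 ± 0.12 (SE, limma adjusted p = 5.81e-09). Mrpl12, the stalk protein of the large subunit that also binds the mitochondrial RNA polymerase, had 53.9, 59.75 and 55.32 FPKM in naïve and 253.51, 276.18 and 289.24 FPKM in TCR activated libraries. It ranked 8 in level among the members in naïve cells and 1 after activation, and its log2 fold change was 2.27 ± 0.08 (SE, limma adjusted p = 6.65e-10). Mrpl1 (2.08), Mrpl47 (2.06) and Mrpl20 (2.04), all proteins of the large subunit, followed by their log2 fold changes.

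Mrpl24, whose bacterial counterpart starts the assembly of the large subunit, was the exception. It had 114.95, 107.53 and 123.8 FPKM in naïve and 91.79, 89.22 and 82.49 FPKM in TCR activated libraries. It was the highest member in naïve cells and fell in all 3 same-numbered pairs, by 0.39 ± 0.08 on the log2 scale (SE, limma adjusted p = 0.000862). Its gene on chromosome 3 (87918131 to 87923450, GRCm38) overlaps Rrnad1, which went from 11.86 ± 1.14 to 7.19 ± 1.99 FPKM (SD, n = 3), a log2 fold change of -0.74. How far reads of the pair were separated was not tested. Mrpl23, a protein at the tunnel exit of the large subunit, had 20.52, 27.08 and 24.83 FPKM in naïve and 27.96, 23.44 and 30.01 FPKM in TCR activated cells. These overlapped, and the log2 fold change was 0.17 ± 0.12 (SE, limma adjusted p = 0.206).

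**Figure D2:**
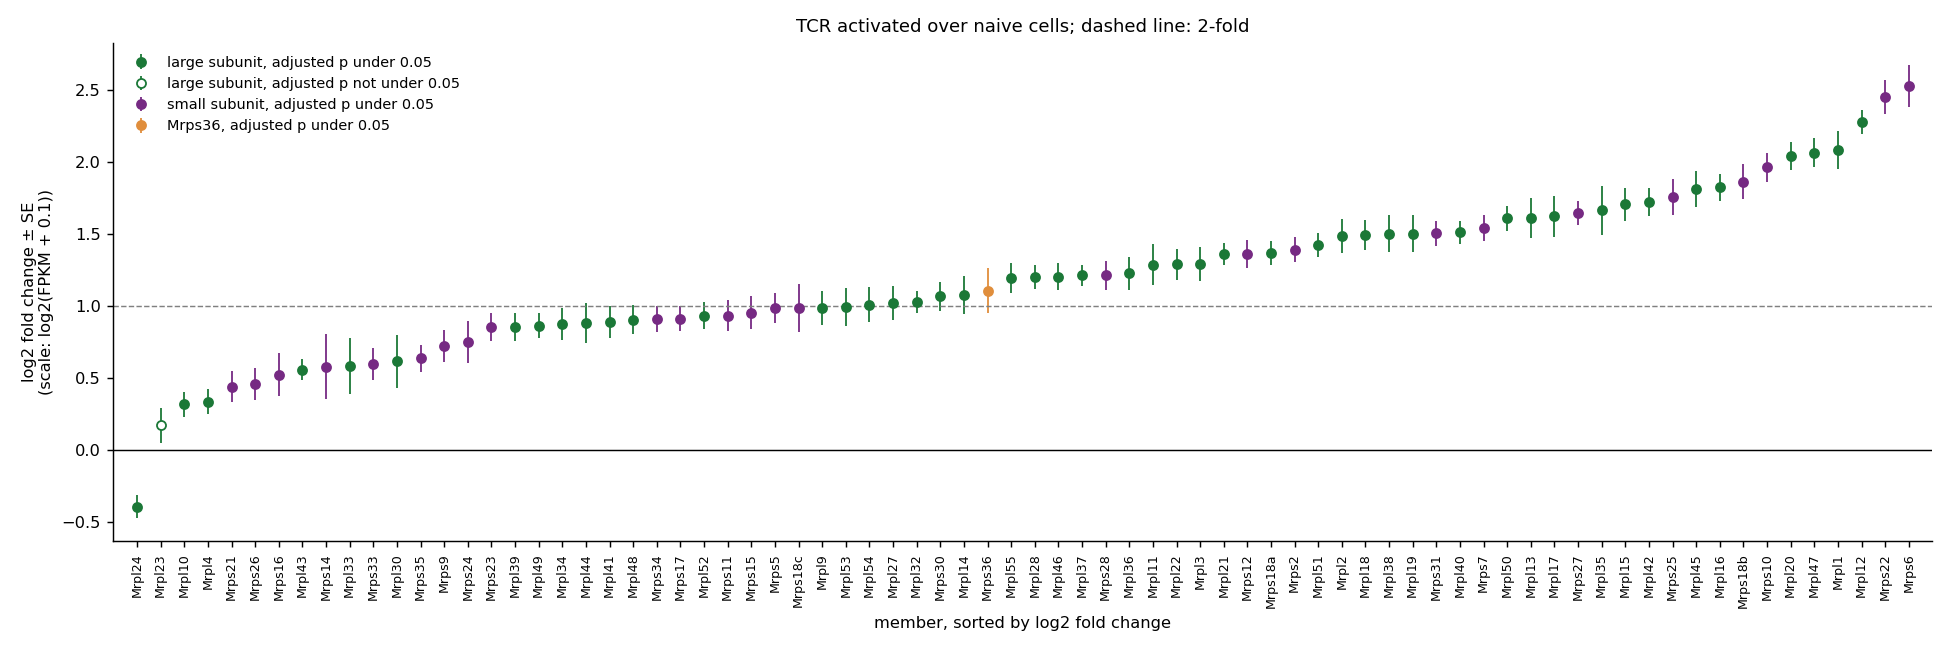
Log2 fold change of TCR activated over naïve cells for the 76 members, sorted, with the SE of the limma fit (bars) and colours by subunit; filled points passed an adjusted p of 0.05. Mrpl24 lies below 0 and Mrpl23 is the open point, while 45 members lie above the dashed line of 2-fold.

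The smallest rises were those of Mrpl10 (0.32), Mrpl4 (0.34) and Mrps21 (0.44). Mrpl10 is the base of the stalk that carries Mrpl12, and the stalk proteins therefore spread widely: from 39.33 ± 4.32 to 48.86 ± 1.87 FPKM for Mrpl10, from 8.49 ± 1.79 to 20.61 ± 1.87 FPKM for Mrpl11 and from 56.32 ± 3.05 to 273 ± 18.1 FPKM for Mrpl12 (SD, n = 3). Mrpl45, which anchors the ribosome to the inner membrane beside the exit tunnel, went from 11.5 ± 1.77 to 40.49 ± 5.15 FPKM, and Mrpl44, an RNase III-like protein, from 15.52 ± 1.73 to 28.92 ± 5.52 FPKM. Mrps12, the protein of the decoding centre, went from 26.65 ± 2.62 to 68.61 ± 5.17 FPKM. Mrps27, a pentatricopeptide repeat protein, rose 3.12-fold and Mrps36 rose 2.15-fold. Among the Mrps18 paralogs, the log2 fold change was 1.36 for Mrps18a in the large subunit and 1.86 for Mrps18b and 0.99 for Mrps18c in the small subunit. Mrpl30 and Mrpl33, after Mrpl24 the highest members in naïve cells, rose with overlapping libraries. Mrpl33 had 62.32, 85.13 and 48.36 FPKM in naïve and 74.35, 108.13 and 107.87 FPKM in TCR activated cells, and replicate 1 of the activated cells lay within the naïve range. With replicate 3 of all groups left out, neither Mrpl30 nor Mrpl33 passed the test, and Mrpl33 also failed it without replicate 3 of the naïve or replicate 2 or 3 of the activated cells.

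Promoter sequence was compared next, since the members rose together. RefSeq windows of GRCm38.p6, from 250 bases before to 50 bases after a transcript start, were at hand for 67 of the 76 members (73 windows). The letters CCGGAAG, bound by ETS factors such as GABP, a known regulator of mitochondrial genes, stood on either strand of 24 member windows, or 32.9%, against 17.8% of the windows of all genes in the tables and 8.86% of all 32851 windows. GCATGCG, a core of the NRF1 site, was in 11% of member windows and 6.38% of those of table genes. GATGGCG, a core of the YY1 site, was in 11% and 6.35%. CACGTG, the E-box bound by MYC, was in 9.59% and 10.1%. The 7 member windows with it belonged to only 5 genes, and Mrpl2 among them had 3 overlapping windows. Windows of 31 of the 67 genes held none of the 4 motifs. Members with and without CCGGAAG had median log2 fold changes of 1.01 and 1.20 on activation and of -0.70 and -0.68 on IL-2 withdrawal, a difference that was not tested. Stretches of 100 bases that end at the base before a transcript start are shown for members on which the results turn, with these motifs in capitals, 5′ to 3′ on the strand of the gene. Mrps22 and Mrpl20 stand for the large rises, Mrpl22 for the largest fall with PI3Kdi, Mrpl12 for the highest level, Mrpl9 for the rise without IL-2 and Mrpl24 for the fall on activation.
Mrps22: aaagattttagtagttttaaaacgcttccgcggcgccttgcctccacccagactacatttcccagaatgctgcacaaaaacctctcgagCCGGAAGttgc
Mrpl20: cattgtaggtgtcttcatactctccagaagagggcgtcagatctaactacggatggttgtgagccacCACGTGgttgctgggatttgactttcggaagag
Mrpl22: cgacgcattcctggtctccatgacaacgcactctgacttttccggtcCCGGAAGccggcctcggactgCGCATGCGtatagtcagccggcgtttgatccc
Mrpl12: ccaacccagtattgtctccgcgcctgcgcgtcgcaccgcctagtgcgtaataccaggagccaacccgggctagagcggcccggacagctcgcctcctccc
Mrpl9: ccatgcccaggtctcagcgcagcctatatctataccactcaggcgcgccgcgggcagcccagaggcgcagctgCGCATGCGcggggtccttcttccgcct
Mrpl24: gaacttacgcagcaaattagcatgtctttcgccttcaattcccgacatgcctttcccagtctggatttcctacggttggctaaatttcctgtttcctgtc
They lie at chr9:98601680-98601779 (Mrps22, minus strand), chr4:155802778-155802877 (Mrpl20), chr11:58171564-58171663 (Mrpl22), chr11:120484537-120484636 (Mrpl12), chr3:94443236-94443335 (Mrpl9) and chr3:87919444-87919543 (Mrpl24), the last 5 on the plus strand. The longer runs of capitals in Mrpl22 and Mrpl9 are the NRF1 core read on both strands with an overlap. Mrpl12 and Mrpl24, with the large rise and the fall, each had none of the 4 motifs in the whole window. For Mrpl9, Mrpl22 and Mrpl24 the transcript start used lies inside the span of the gene.

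Inhibition of p110δ left most of the rise in place. The libraries with PI3Kdi had 4173.07, 4150.84 and 4197.74 FPKM summed over the members, or 4174 ± 23.5 (SD, n = 3), each below the lowest TCR activated library. This sum was 11.1% lower than without PI3Kdi and 1.96-fold that of naïve cells. In summed FPKM, 79.6% of the difference between TCR activated and naïve cells remained. As a share of all FPKM of a library, members took 0.922% ± 0.00298 (SD, n = 3) with PI3Kdi. The share was 0.98% without PI3Kdi and 0.467% in naïve cells, so the fall was smaller by share than by sum. The large and the small subunit sums were 11.1% and 11% lower. No member changed over 2-fold, as 3.04% of all genes did upwards and 2.1% downwards. At an adjusted p under 0.05, 9 members fell and 0 rose, where 8.19% of all genes fell and 9.35% rose. An unadjusted p under 0.05 was found for 25 members, or 32.9%, and for 31.5% of all genes. The median log2 fold change was -0.16, beside -0.01 for all genes. A value below 0 was found for 65 of 76 members and for 5733 of all 11262 genes. The groups did not overlap for 34 members that were lower in each PI3Kdi library, which 18.6% of all genes were. The 9 calls depended on single replicates. By limma, 0 were left without replicate 2 or without replicate 3 of all groups, naïve cells included. Without replicate 1 of the TCR activated cells 17 calls were made, 11 of them on other members. The share of all genes called in that fit is not given here, so the 17 calls cannot be set beside the 8.19%. Leaving out any 1 of the 6 libraries cost 3 to 8 of the 9 calls. With the replicate block, Mrpl46 had a limma adjusted p of 0.0517 and the other 8 passed.

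The members that fell with PI3Kdi were Mrpl22, Mrpl53, Mrps5, Mrpl42, Mrpl12, Mrpl40, Mrpl32, Mrpl46 and Mrpl37, of which 8 belong to the large subunit and Mrps5 to the small one. Mrpl22, a protein of the exit tunnel, had 61.85, 52.54 and 55.57 FPKM without and 40.7, 38.4 and 37.83 FPKM with PI3Kdi. The groups were clearly apart, and the log2 fold change was -0.54 ± 0.10 (SE, limma adjusted p = 0.00559). Naïve cells had 19.85, 25.07 and 24.77 FPKM of Mrpl22, so that the level with PI3Kdi was still 1.68-fold the naïve one. Mrpl53, a mitochondria-specific protein, had 32.58, 46.55 and 44.04 FPKM without and 27.8, 30.09 and 28.13 FPKM with PI3Kdi. Its log2 fold change was -0.50 ± 0.13 (SE, limma adjusted p = 0.0265). Replicate 1 without PI3Kdi was close to the libraries with it. The gene of Mrpl53 overlaps Ccdc142, which was at 1.64 and 2.07 FPKM in the activated groups.

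Mrps5 had 90, 72.72 and 74.44 FPKM without and 60.9, 58.54 and 59.94 FPKM with PI3Kdi, and its log2 fold change was -0.40 ± 0.10 (SE, limma adjusted p = 0.0258). Mrpl12, the member with the highest level in these cells, had 213.78, 203.63 and 228.15 FPKM with PI3Kdi, all below the TCR activated libraries given above, and fell by 0.34 on the log2 scale (SE 0.08, limma adjusted p = 0.0163). The other 5 members had log2 fold changes between -0.35 for Mrpl42 and -0.26 for Mrpl37. Mrps6 and Mrps22, which rose most on activation, had log2 fold changes of -0.23 (SE 0.14, limma adjusted p = 0.318) and -0.22 (SE 0.12, limma adjusted p = 0.239) with PI3Kdi. The highest values were 0.15 for Mrps14, 0.10 for Mrps24 and 0.09 for Mrps18c, none of which passed the test.

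**Figure D3:**
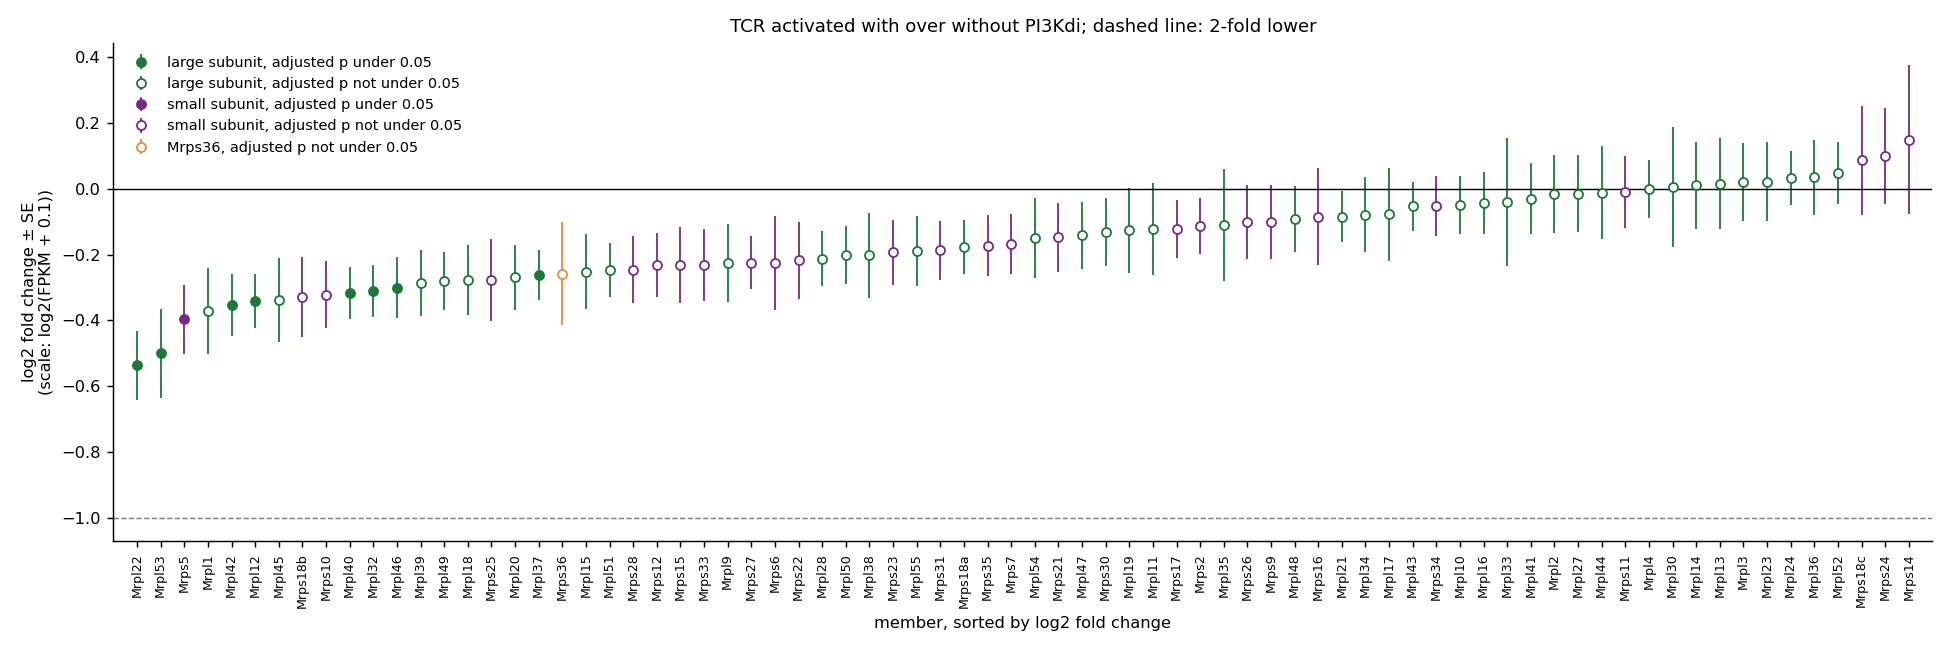
Log2 fold change of TCR activated cells with over without PI3Kdi for the 76 members, sorted, with the SE of the limma fit (bars) and colours by subunit; filled points passed an adjusted p of 0.05. Of the members, 65 lie below 0, where 5733 of all 11262 genes had a value below 0. The 9 filled points are at -0.26 or lower, and no member reaches the dashed line of 2-fold.

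Set beside naïve cells, the cells activated with PI3Kdi had 74 members that rose, against 40.1% of all genes, and 1, Mrpl24, that fell, against 39.0%. Of the members, 37 rose over 2-fold, against 23.6% of all genes, and 74 were higher in each PI3Kdi library than in each naïve one, as 41.9% of all genes were. This comparison shares its libraries with both others. The highest log2 fold changes were 2.30 for Mrps6, 2.23 for Mrps22, 1.93 for Mrpl12, 1.92 for Mrpl47 and 1.78 for Mrpl16. At the other end, Mrpl24 was at -0.36, Mrpl23 at 0.19 (limma adjusted p = 0.16) and Mrpl10 at 0.27. The plots of single members show the same order of the group means, naïve, PI3Kdi and TCR, for Mrpl12, Mrps22, Mrps6, Mrpl22, Mrps28 and Mrpl9. Of these, Mrpl12 and Mrpl22 fell with PI3Kdi, and Mrps22, Mrps6, Mrps28 and Mrpl9 did not pass that test.

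**Figure D4:**
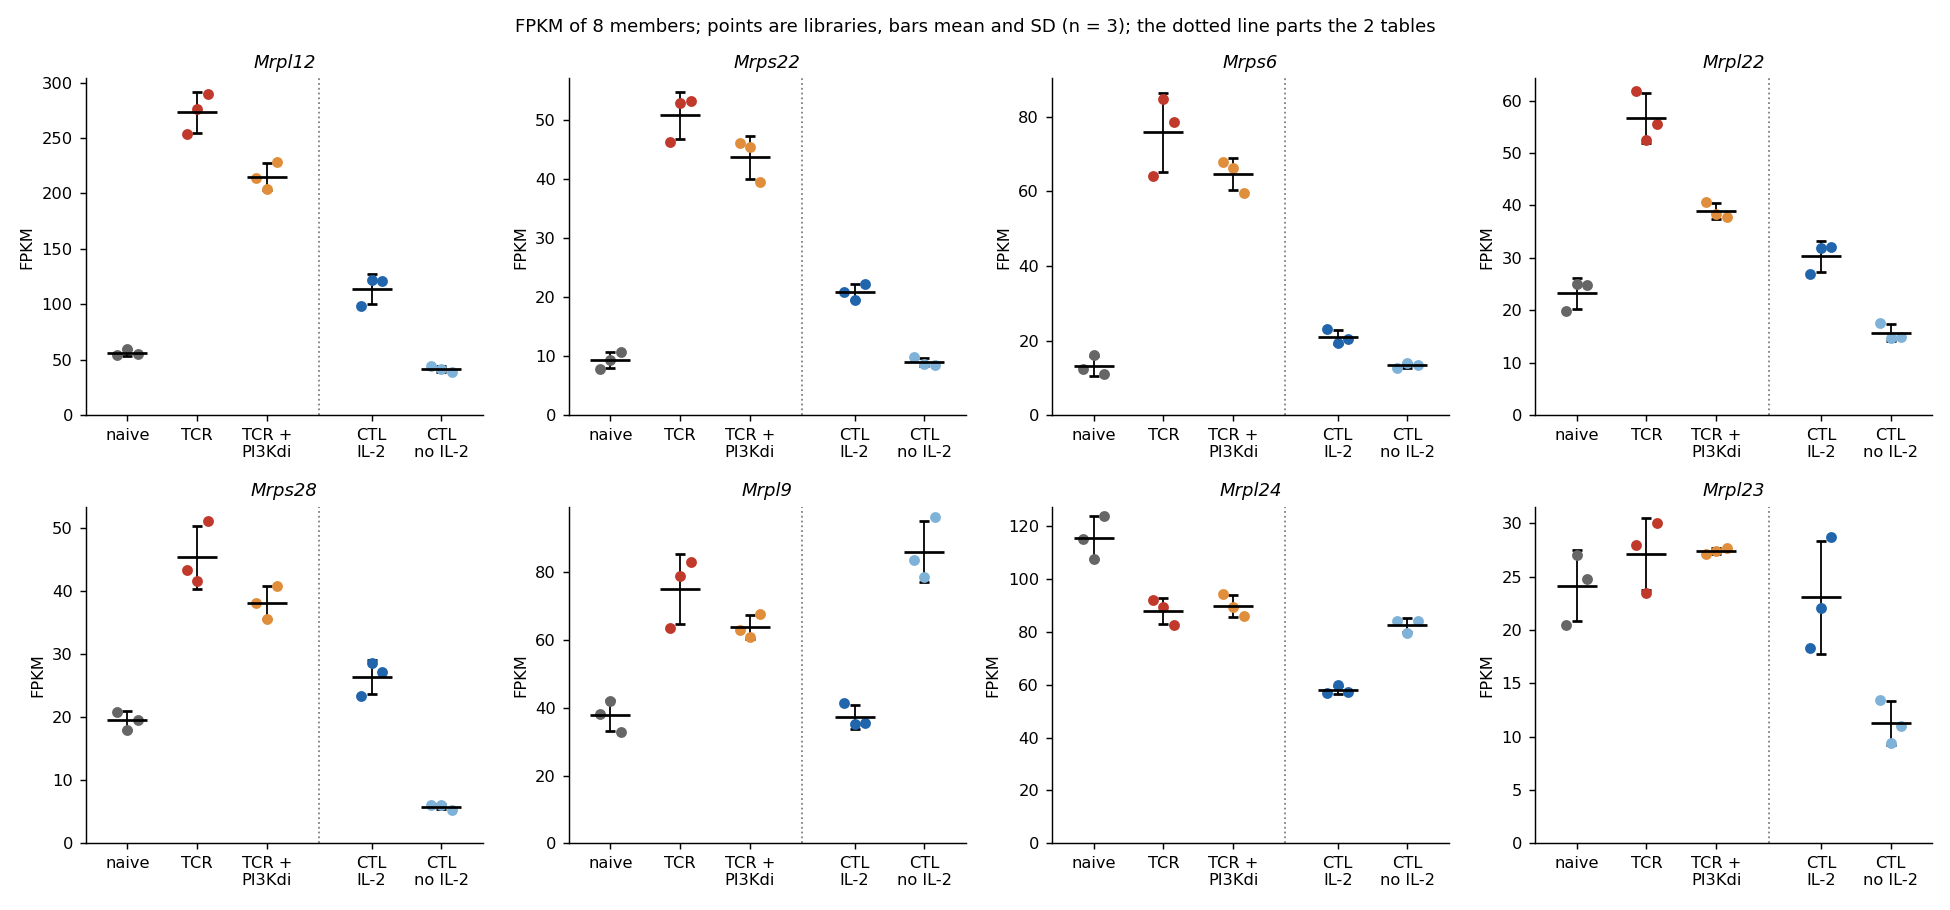
FPKM of 8 members in the 15 libraries (points), with the mean and SD of 3 replicates (bars), on linear axes from 0; the dotted line parts the 2 tables. Mrpl12 reached 289.24 FPKM after activation from 53.9 to 59.75 FPKM in naïve cells, Mrps28 had 5.36 to 6.1 FPKM in CTL without IL-2, and Mrpl9 and Mrpl24 were higher without IL-2.

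In CTL, withdrawal of IL-2 for 24 h lowered most members. Of the 76, 62 fell, 2 rose and 12 did not pass the test, while 36.6% of all 11211 genes fell and 35.2% rose. A fall over 2-fold was found for 21 members, against 13.9% of all genes, and a rise over 2-fold for 1 member, against 14.3%. The median log2 fold change was -0.70, and that of all genes was -0.001. The members summed to 2911.71, 3111.94 and 3124.23 FPKM in CTL with IL-2 and to 2064.85, 1979.51 and 2033.02 FPKM without it. The means were 3049 ± 119 and 2026 ± 43.1 (SD, n = 3), 33.6% lower. As a share of all FPKM of a library, members took 0.619% ± 0.00446 with and 0.449% ± 0.0063 without IL-2 (SD, n = 3). Of the 49 large subunit members 37 fell and 2 rose, and of the 26 small subunit members 24 fell and 0 rose, with medians of -0.73 and -0.59. The libraries were lower without IL-2 with no overlap for 61 members, as for 38.5% of all genes, and higher for 3 members, as for 37.6%. Markers of other cell types moved with the withdrawal of IL-2. Of the 26 listed, 7 had a row in this table (Cd79b, Itgam, Itgax, Cst3, Cd4, Klrb1c and Pecam1), and 7 rose. Their sum was 88.71 to 105.21 FPKM with and 172.48 to 183.25 FPKM without IL-2. Cst3 and Pecam1 made up most of it. Cd79b of B cells was at 2.74 to 6.3 FPKM with and 10.8 to 20.64 FPKM without IL-2, and Itgam, Itgax, Cd4 and Klrb1c were each at or below 5.17 FPKM in every library. Their part in the fall of the members was not tested. In the same libraries 48 of the 81 cytosolic ribosomal protein genes rose and 7 fell, and their sum was 77230 ± 2530 FPKM with and 92830 ± 3290 FPKM without IL-2 (SD, n = 3).

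Mrps28, a small subunit protein, had the largest fall. It was at 23.4, 28.6 and 27.16 FPKM with IL-2 and at 6.1, 6.05 and 5.36 FPKM without it, with no overlap. The log2 fold change was -2.15 ± 0.11 (SE, limma adjusted p = 4.15e-07), a level 4.45-fold lower. In naïve cells, in the other table, Mrps28 was at 18 to 20.91 FPKM. Mrps18b had 38.66, 49.64 and 48.94 FPKM with and 14.8, 17.7 and 12.29 FPKM without IL-2, and fell by 1.62 on the log2 scale (SE 0.14, limma adjusted p = 8.35e-06). Its paralogs fell less, by 0.96 for Mrps18a and 0.46 for Mrps18c, and the differences between the paralogs were not tested.

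Mrpl42, the highest member in CTL with IL-2, had 89.45, 127.91 and 139.6 FPKM with and 45.33, 39.58 and 30.91 FPKM without it. The spread within each group was wide, yet the groups were apart, with a log2 fold change of -1.61 ± 0.18 (SE, limma adjusted p = 3.32e-05). Mrps10 (-1.60) and Mrpl12 (-1.45) were next. Mrpl12 had 98.38, 122.01 and 121.23 FPKM with and 44.37, 41.13 and 38.66 FPKM without IL-2. The stalk proteins again spread, with -0.35 for Mrpl10 and -1.02 for Mrpl11. Mrps12 of the decoding centre fell by 0.80, Mrps27 by 1.03 and Mrps36 by 1.17 on the log2 scale. Mrpl45, which rose 3.51-fold on activation, had 23.18, 20.05 and 19.41 FPKM with and 20.07, 21.76 and 18.86 FPKM without IL-2, a log2 fold change of -0.04 ± 0.10 (SE, limma adjusted p = 0.707). Mrps30 at -0.08 and Mrpl44 at -0.09 did not pass the test either.

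Mrpl9 was the one member that rose over 2-fold without IL-2. It encodes a large subunit protein with a bacterial counterpart (chromosome 3, 94443154 to 94448708, GRCm38), and no other RefSeq gene overlaps it. It had 41.43, 35.26 and 35.37 FPKM with IL-2 and 83.49, 78.39 and 95.99 FPKM without it. The groups were far apart, and the log2 fold change was 1.20 ± 0.10 (SE, limma adjusted p = 5.59e-06). On activation Mrpl9 had also risen, from 38.21, 42.04 and 32.89 FPKM to 63.35, 78.79 and 82.84 FPKM. Mrpl24 rose from 56.73, 59.68 and 57.33 FPKM to 84.09, 79.35 and 84.08 FPKM, a log2 fold change of 0.51 ± 0.07 (SE, limma adjusted p = 0.000128). The overlapping Rrnad1 rose as well, from 3.94 to 6.07 FPKM. Mrpl14 (0.23) and Mrps35 (0.21) had the next highest values and did not pass the test.

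Activation and IL-2 withdrawal were measured in different cells and libraries. Across the 76 members, their log2 fold changes had a Pearson r of -0.51 and a Spearman rho of -0.56. This is a description across genes, which are not independent, and across all 10637 genes in both tables r was -0.64 and rho -0.69. Of the 45 members that rose over 2-fold on activation, 19 fell over 2-fold without IL-2, which is 42.2% of the former and 90.5% of the 21 latter. Over all genes in both tables, 1075 met both limits, which is 42.8% of the 2513 that rose over 2-fold on activation and 76.6% of the 1404 that fell over 2-fold without IL-2. The other two of the 21 members were Mrpl23 and Mrps15. Mrps6 and Mrpl1 stood at the upper end on activation and had only -0.64 and -0.13 without IL-2.

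**Figure D5:**
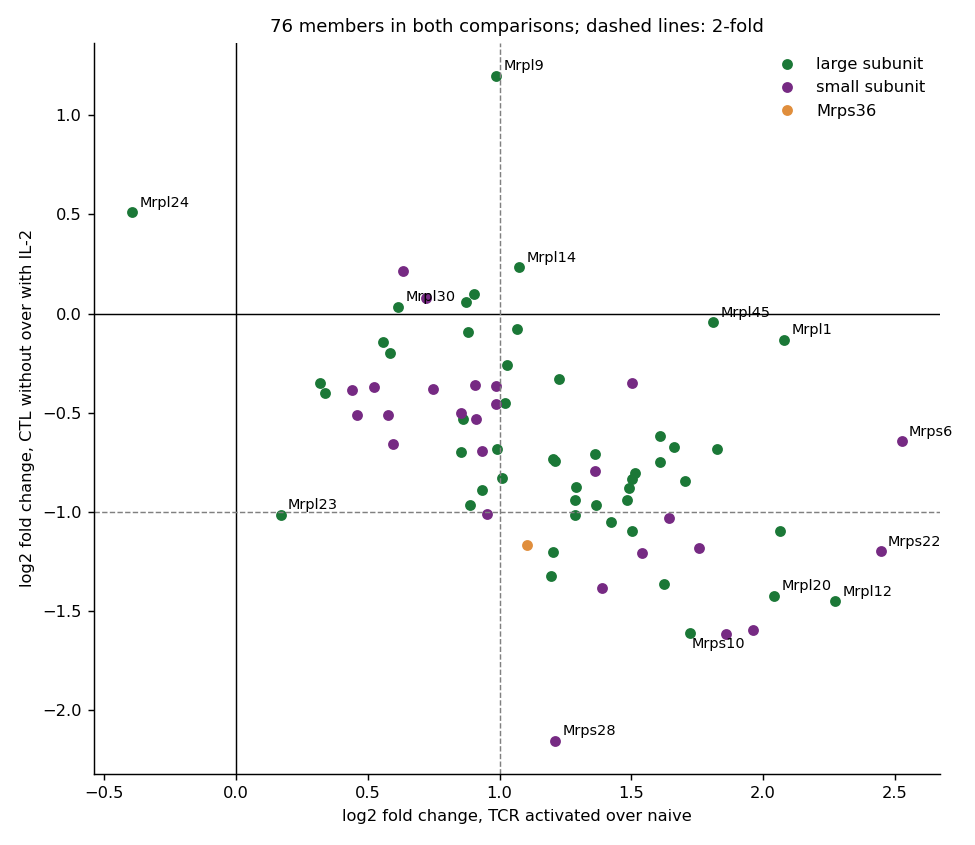
Log2 fold change of CTL without over with IL-2 (vertical) against that of TCR activated over naïve cells (horizontal) for the 76 members, coloured by subunit, with dashed lines at 2-fold. The lower right corner holds the 19 members past 2-fold in both comparisons, and Mrpl24 lies alone in the upper left.

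The level of single members spanned a wide range within each group. In naïve cells it went from 2.49 FPKM for Mrps25 to 115.4 FPKM for Mrpl24, with a median of 24.5 FPKM, and 7 members were below 10 FPKM. In TCR activated cells the range was 8.67 FPKM for Mrps25 to 273 FPKM for Mrpl12, with a median of 54.2 FPKM, and 1 member was below 10 FPKM. With PI3Kdi the median was 48.0 FPKM. In CTL the median was 33.1 FPKM with IL-2 and 21.1 FPKM without, when 17 members were below 10 FPKM. Mrps25 was the lowest member in all 5 groups. By the exon lengths of GENCODE M21 its exons cover 6073 bases, and those of Mrpl41 cover 776 bases. Its median estimate was 280 reads per library, above the 119 reads of Mrpl41. How far exon length shapes the order of members was not tested. The ribosome takes up most of these proteins in single copies, and their mRNA levels in FPKM were not equal.

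Ribosomal proteins outside the symbol rule were measured too. Of 7 such genes 6 rose and 1 fell on activation, beside 40.9% and 39.8% of all genes. Their median log2 fold change was 0.54. Ptcd3 and Chchd1 of the small subunit rose by 1.38 and 1.36. Ict1, a peptidyl-tRNA hydrolase built into the large subunit, fell from 77.3 ± 10.6 to 62.74 ± 2.73 FPKM (SD, n = 3) on activation, by 0.29 on the log2 scale. In CTL without IL-2, 4 of the 7 fell and 2 rose, beside 36.6% and 35.2% of all genes. Chchd1 fell by 1.08. Ict1 rose by 0.58 and Dap3, the GTP-binding protein of the small subunit, by 0.50.

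Partners of the mitochondrial ribosome were measured as well. Of 23 genes for its assembly and rRNA modification, 15 rose and 2 fell on activation, with a median log2 fold change of 0.42, beside 40.9% and 39.8% of all genes. In CTL without IL-2, 10 rose and 11 fell, beside 35.2% and 36.6% of all genes. Fastkd2, an RNA-binding protein needed for the large subunit, rose by 1.41 on activation, and in CTL Rnmtl1, an rRNA methyltransferase, fell by 1.11. Of 13 translation factors 8 rose and 2 fell on activation, beside 40.9% and 39.8% of all genes. The elongation factor Gfm1 went from 19.28 ± 0.26 to 79.06 ± 4.95 FPKM (SD, n = 3), the elongation factors Tsfm and Tufm rose by 1.87 and 1.68, and Gfm1 fell by 1.34 without IL-2. With PI3Kdi Gfm1 fell by 0.31 and the release factor Mtrf1 by 0.69. Of 17 mitochondrial aminoacyl-tRNA synthetases 10 rose and 2 fell on activation, beside the same shares of all genes. Among them Yars2 was at 1.83 and Ears2 at -1.39.

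Genes that copy and transcribe mitochondrial DNA counted 8, of which 5 rose and 2 fell on activation, beside 40.9% and 39.8% of all genes. The topoisomerase Top1mt rose by 2.22 and fell by 1.80 without IL-2, and Polg2, the accessory subunit of the mitochondrial DNA polymerase, fell by 1.25 and rose by 1.36. Of 8 nuclear regulators 4 rose and 0 fell on activation, beside 40.9% and 39.8% of all genes. Myc, a transcription factor that drives growth, had 70.6 ± 14.6 FPKM in naïve, 349.9 ± 53.2 in TCR activated and 302.9 ± 15.2 in PI3Kdi cells, and 214.4 ± 49.3 and 42.38 ± 3.19 FPKM in CTL with and without IL-2 (SD, n = 3). Pprc1, a coactivator related to PGC-1α, rose by 1.19 and fell by 2.18 without IL-2. In all, 7 of the 8 regulators fell and 0 rose in CTL without IL-2, beside 36.6% and 35.2% of all genes. With PI3Kdi 2 of the 8 regulators fell, 0 rose and 6 did not pass the test. Among all genes 8.19% fell and 9.35% rose. Nrf1 and Gabpa, named because their motifs were among the 4 searched above, fell with PI3Kdi by 0.39 and 0.29. The nuclear-encoded oxidative phosphorylation subunits join the products of this ribosome in the inner membrane. On activation 52 of 77 rose and 8 fell, beside 40.9% and 39.8% of all genes. With PI3Kdi 0 of 77 changed by limma, where 9.35% of all genes rose and 8.19% fell. An unadjusted p under 0.05 was found for 8 of the 77 and for 31.5% of all genes. In CTL without IL-2, 56 of 79 fell and 4 rose, beside 36.6% and 35.2% of all genes.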

How the data were processed

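The authors deposited FPKM in 2 tables, 9 libraries of naïve and 24 h activated P14 CD8+ T cells and 6 CTL libraries. The authors aligned reads to mm10 with STAR 2.5.2b, counted them with Subread 1.5.1, filtered genes with filterByExpr, TMM-normalised in edgeR and divided by exon length. These steps were taken to hold for the CTL table too. Values have 2 decimals, and 1039 blank cells of the first table were read as 0. CTL kept in IL-2 were grouped by title, since the treatment labels of replicates 2 and 3 name other interleukins.

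Log2(FPKM + 0.1) was fitted in R 4.3.3 with limma 3.58.1 and an intensity trend, with 1 fit per table and no test across tables. Alternatives were other pseudocounts, a minimum FPKM, median scaling, a replicate block, no trend, fits of the compared groups only, a lower fold limit and leaving out replicates. On simulated data with 200 genes changed 4-fold, 98% were recovered past 2-fold for TCR over naïve (11262 genes) and 97.5% for CTL (11211 genes). False calls at an adjusted p under 0.05 were 9 and 13, of which 2 and 0 were past 2-fold. Changes smaller than 4-fold, and the comparison of PI3Kdi with TCR, were not simulated, so their recovery is not known. The depth estimate used GENCODE M21 exon lengths. Python 3.11.15, pandas 2.3.3 and matplotlib 3.10.9 were used.

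Pools were divided between the groups of the first table, so replicate numbers were taken to pair libraries. Deviations from the group means had a mean r of 0.33 between same-numbered TCR and PI3Kdi libraries, -0.03 between naïve and TCR ones and 0.18 between CTL ones.

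The members and lists were chosen with earlier results of these data known. Named members were the 5 highest and 5 lowest log2 fold changes of each comparison, members called against the majority, the 5 highest in naïve cells, and preset proteins of the stalk, exit tunnel, decoding centre and Mrps18 family. Members outside this rule (Mrpl20 on activation, Mrpl40, Mrpl32, Mrpl46 and Mrpl37 with PI3Kdi, and Mrps15) were named after their values were seen. From other lists, up to 3 genes with the largest change per comparison were named, and Dap3, Ict1, Tufm and Gabpa for their role.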

Additional observations from a re-analysis of the deposited data

How the results depend on the processing

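Over the settings run, up to 5 of the 75 calls on activation, up to 8 of the 75 calls of PI3Kdi over naïve cells and up to 6 of the 64 calls in CTL were lost, the most without replicate 3, 3 and 2 of all groups in that order. The counts stayed within 1.5 times of those reported, apart from these. With a limit of 1.5-fold, 62 members rose with PI3Kdi over naïve cells and 45 fell in CTL without IL-2. The shares of all genes at that limit are not given here, and the shares at 2-fold do not apply to these counts. With libraries scaled to the same median, the median log2 fold change of members on activation was 1.32, while that of all genes moved from 0.01 to 0.13. The count of members that fell with PI3Kdi was 4 without an intensity trend, and 0 to 17 when replicates were left out. The shares of all genes called in those fits are not given here. No called member changed sign in any setting. Signs turned for members near 0 that were not called. With PI3Kdi, Mrpl30 was at -0.026 after median scaling and ranged from -0.196 to 0.127 with replicates left out. In such fits Mrpl24 ranged from -0.012 to 0.065, Mrpl33 from -0.242 to 0.117, Mrpl36 from -0.07 to 0.088, Mrpl44 from -0.195 to 0.101, Mrps14 from -0.129 to 0.338, Mrps18c from -0.087 to 0.207 and Mrps24 from -0.056 to 0.199. In CTL, Mrpl30 ranged from -0.069 to 0.175 and Mrpl45 from -0.124 to 0.038. The cause was not tested. The replicate block changed the count with PI3Kdi from 9 to 8 and no other call of a member. FPKM are shares of a library, so an overall change in mRNA per cell cannot be seen.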
